A study of Mus musculus with 20 samples.

Results

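The comparison sets 2 kinds of mouse sarcoma against each other, CIC-DUX4 sarcoma (CDS) and Ewing sarcoma (ES). It holds the arrays of tumors titled CDS 1 to 6 and of tumors titled ES 41, 46, 47, 48, 49 and 51, which are 12 of the 20 samples of the series, and the 12343 genes that had a single symbol and passed a filter on dim probe sets. CDS tumors formed as masses under the skin of Balb/c nude mice from embryonic mesenchymal cells (eMC) carrying the retrovirus pMYs-CIC-DUX4-IRES-GFP, and were not treated. The ES samples are labelled mouse Ewing sarcoma with the same growth text, which does not say from which cells or with which fusion they were made. The other 8 samples are cultured eMC, 48 h after transduction with CIC-DUX4 (4 samples) or with the empty vector pMYs-IRES-GFP (4 samples). They appear here as side values, and also entered the filter, the choice of probe sets and the offset.

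Both tumors are sarcomas of small round cells driven by a fusion transcription factor. CIC is a repressor that binds short octamers near genes of receptor tyrosine kinase and MAP kinase signalling, and its fusion to DUX4 turns it into an activator of the same genes. Ewing sarcoma is driven by a fusion of EWSR1 with an ETS factor, most often FLI1, which activates genes from GGAA repeats and lowers many mesenchymal genes.

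The tumor types differed at many genes in both directions. At a Benjamini-Hochberg adjusted p under 0.05 (limma) and a difference of at least 1 in log2 signal, 1382 genes were higher in CDS tumors (11.2%) and 1182 were higher in ES tumors (9.58%). The fitted difference reached at least 16-fold for 330 and 287 of them. For 952 and 759 of the called genes, no tumor of one type overlapped the range of the other. The calls were made on these same arrays, so this count is no separate evidence. After quantile normalization, 2090 genes were higher in CDS (16.9%) and 1993 in ES (16.1%). The call was the same on both scales for 1157 genes higher in CDS and 1165 higher in ES, and opposite for 0.

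**Figure D1:**
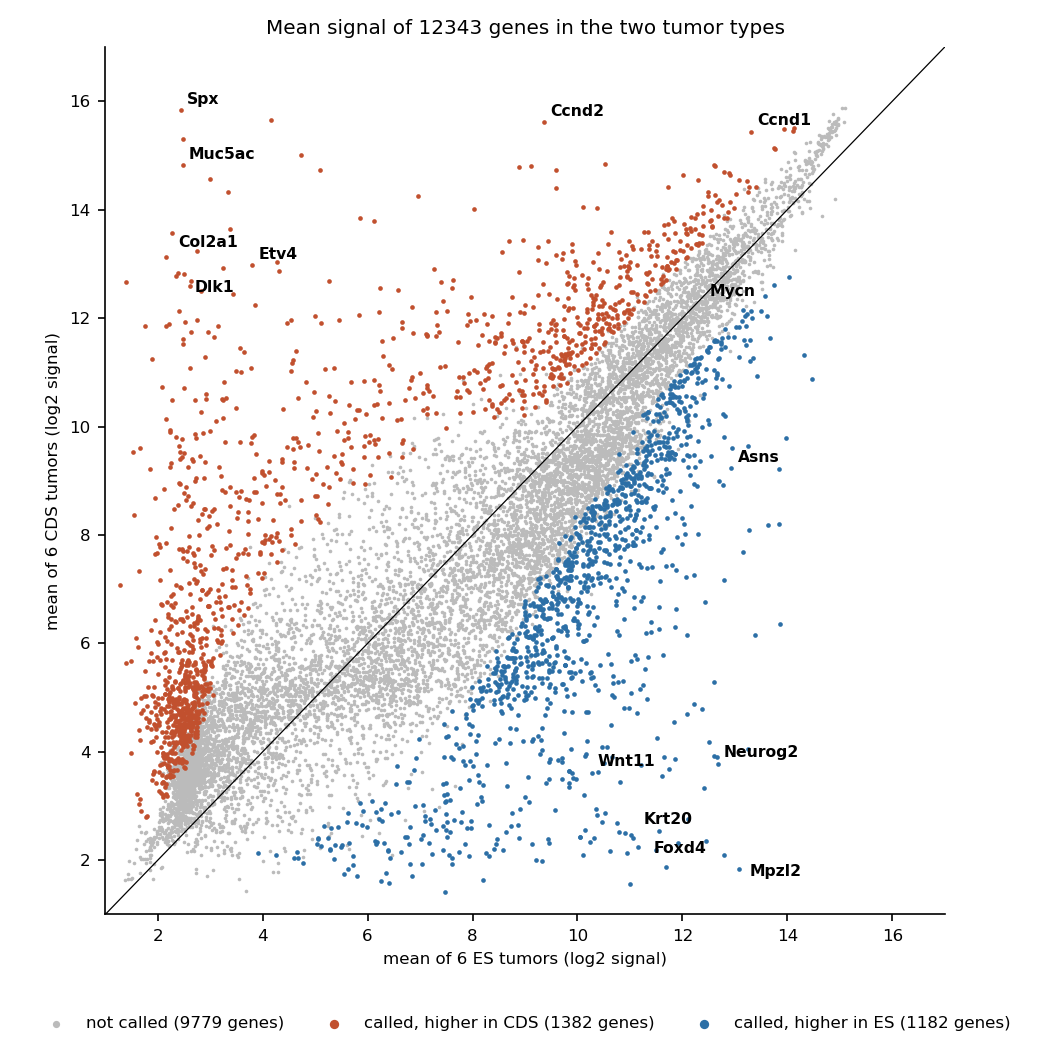
Mean log2 signal of each of 12343 genes in the 6 ES tumors (x axis) and the 6 CDS tumors (y axis); grey points were not called, red points were called higher in CDS and blue points higher in ES, and the line marks equal means. Spx, Muc5ac and Col2a1 lie at the upper left and Mpzl2, Foxd4 and Krt20 at the lower right, and a dense patch of red points lies low on both axes.

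The arrays themselves differed between the types, and the part of this in the results was not tested. The 3′ over 5′ signal of Actb, which rises as RNA degrades, averaged 0.80 ± 0.36 on the log2 scale over the 6 CDS tumors (SD) and 0.25 ± 0.05 over the 6 ES tumors (exact two-sided permutation p = 0.00216). Each array's signals fall into a dim and a bright mode with a dip between them, and between 11.7% and 57.3% of a CDS array's probe sets were bright, against 27.9% to 40.4% for ES. The dip itself lay at a log2 signal of 4.01 to 8.09 in CDS arrays, highest in CDS 5, and at 4.48 to 5.53 in ES arrays, so that a signal counts as bright at different levels in different arrays. The median log2 signal was 5.67 in CDS 2, 2.78 to 4.01 in the other CDS tumors and 2.40 to 2.85 in ES tumors. Calls can therefore rest on dim probe sets: 819 of the genes higher in CDS lay above the dip in at least 4 CDS arrays (6.64% of all genes), against 1151 of those higher in ES in at least 4 ES arrays (9.33%). Such calls are named bright below. With each array shifted to the same median, 512 genes were higher in CDS (4.15%) and 2349 in ES (19%), so that 17.9% of calls were towards CDS, against 53.9% as deposited. That shift moved the median difference of all genes from 0.02 to -0.99, and list counts are given on it, and after quantile normalization, where they moved by over 1.5 times, and list medians where they turned negative. List counts at the same median are to be read beside the shares over all genes there, 4.15% and 19%. Those after quantile normalization are to be read beside 16.9% and 16.1%. A gene's values are those of its brightest probe set; for Bcl11b, Cxadr, Dsg2, Epha7, Fzd5, Ncam1, Ntrk2, Pappa, Pfkp, Spred2, Spry4 and Wnt7b below, at least 1 other probe set was not called, and for Ntrk2 it lay the other way (1.66). The p-values measure the spread between these tumors, and the labels do not say whether tumors of a type came from separate transductions. The culture arrays differed as well. Their median log2 signals were 2.33 to 7.05 with CIC-DUX4 and 2.60 to 3.28 with the empty vector. The part of this in the culture means below was not tested.

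Promoter stretches that hold a CIC octamer are shown first, since CIC-DUX4 is known to act through it. The 4 octamers TGAATGAA, TGAATGGA, TCAATGAA and TCAATGGA were sought on both strands of RefSeq promoter windows (GRCm38.p6, 250 bases before to 50 after each start). The stretches below are from genes higher in CDS tumors. They are printed 5′ to 3′ on the gene's strand with the octamer in capitals, which reads as the reverse complement where it lies on the other strand. Spred3 (chr7:29168648-29168687, minus strand), Spry2 (chr14:105896836-105896903, minus strand) and Dusp6 (chr10:99263177-99263230, plus strand) are of the CIC list, and Bcl2 (chr1:106714371-106714438, minus strand) and Fgfbp3 (chr19:36919622-36919689, minus strand) are not. With arrays at the same median, Spry2, Dusp6 and Bcl2 were not called.
Spred3: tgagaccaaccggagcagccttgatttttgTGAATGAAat
Spry2: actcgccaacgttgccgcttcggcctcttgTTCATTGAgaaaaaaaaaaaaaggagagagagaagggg
Dusp6: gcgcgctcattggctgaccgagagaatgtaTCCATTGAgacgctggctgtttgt
Bcl2: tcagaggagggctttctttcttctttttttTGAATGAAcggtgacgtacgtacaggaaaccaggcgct
Fgfbp3: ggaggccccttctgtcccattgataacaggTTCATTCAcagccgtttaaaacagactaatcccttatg
The octamer began 10 bases before the start in Spred3, 54 in Spry2, 24 in Dusp6, 118 in Bcl2 and 60 in Fgfbp3.

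Counted by window, 3.835% of all 32851 windows held an octamer. The shares that follow are counted by gene, with a match in any of its windows, and are not the same measure. The share was 6.883% for genes higher in CDS (72 of 1046 with a window), 1.793% for genes higher in ES (17 of 948) and 2.915% for all tested genes with a window (289 of 9914). In the CIC list it was 5 of 12. An ETS pair, GGAAGGAA, stood in a window of 5.163% of genes higher in CDS, 4.325% of those higher in ES and 4.287% of all tested genes. These are again shares of the genes with a window. A match describes letters and not binding, and these shares were not tested.

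Of the 21 tested genes of the CIC target list, 19 were higher in CDS tumors (18 bright), 1 was higher in ES and 1 was not called. The list's median difference was 3.80 in log2, against 0.02 for all genes. With arrays at the same median, 12 stayed higher in CDS. Ccnd1, Dusp4, Dusp6, Phlda1, Spred1, Spred2 and Spry2 were no longer called there. The list was taken from work on CIC and CIC-DUX4, and its genes were known to be high in these CDS tumors when it was chosen, so that its direction is no independent evidence.

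Muc5ac, a secreted gel-forming mucin, led the list. It ranged from 13.78 to 15.64 in log2 signal in CDS tumors (median 14.79) and from 2.02 to 2.74 in ES tumors (median 2.54). No ES tumor came near the lowest CDS tumor, and the mean was at least 874-fold higher in CDS. This bound sets the CDS mean against the dip of the ES arrays, since Muc5ac lay below the dip in all of them. The fitted difference was 12.34 ± 0.52 (SE; adjusted p = 4.26e-11, limma). Crh, the precursor of corticotropin-releasing hormone, ranged from 11.57 to 13.97 in CDS and from 1.28 to 1.58 in ES, at least 197-fold apart. Vgf, a neuropeptide precursor, ranged from 14.54 to 16.91 in CDS tumors and was split among ES tumors. It was at 9.58 in ES 49 and 5.76 in ES 46, both above the dip, and at 2.80 or less in the other 4.

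The PEA3 factors, ETS transcription factors that act downstream of growth factor receptors, were all higher in CDS. Etv4 ranged from 12.26 to 14.15 in CDS tumors (median 12.79) and from 2.44 to 6.99 in ES tumors (median 3.14), where only ES 47 lay above the dip. Its difference was 9.18 ± 0.76 (adjusted p = 2.04e-07, limma). Etv1 ranged from 14.06 to 15.95 in CDS and from 7.97 to 10.89 in ES, a 51.2-fold difference. Etv5 ranged from 14.03 to 15.90 in CDS and from 8.84 to 11.86 in ES, a 19.8-fold difference. Etv1 and Etv5 were thus above the dip in all 12 tumors, with no overlap between the types. In eMC with the empty vector, their mean log2 signals were 3.73 and 5.29, and 8.85 and 10.62 in eMC with CIC-DUX4.

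Brakes of MAP kinase signalling were higher by smaller amounts and were above the dip in nearly all tumors. Spry4, an inhibitor of receptor tyrosine kinase signalling, ranged from 12.47 to 14.14 in CDS and from 7.90 to 10.30 in ES (4.07 ± 0.42). Spred3, of the related SPRED family, ranged from 11.05 to 12.52 in CDS and from 3.70 to 8.21 in ES, with ES 48 lowest. The types did not overlap for either gene. Spred1 and Spred2 were higher by 1.94 ± 0.26 and 2.07 ± 0.25, and Spry2 by 2.19 ± 0.36. Dusp4 and Dusp6, phosphatases that switch off ERK, were higher by 2.42 ± 0.33 and 1.48 ± 0.25, and Dusp6 had the smallest called difference of the list. Spred1, Spred2, Spry2, Dusp4 and Dusp6, with Shc3, were named after their values were seen. Fosl1, an AP-1 subunit, ranged from 5.35 to 8.99 in CDS and from 1.90 to 3.04 in ES. Maff, a small basic leucine zipper factor, was higher by 3.80 ± 0.88 with overlapping ranges. Shc3, an adaptor of receptor kinases, was above the dip in only 2 CDS tumors and no ES tumor. Phlda1, a stress-induced protein, was higher by 2.63 ± 0.48.

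The wider list of MAP kinase feedback and immediate-early genes had 12 of 25 members higher in CDS, all bright, and 2 higher in ES, with a median of 1.36; at the same median 6 were higher in CDS and 2 in ES. It shares Spred3, Spry4, Fosl1, Maff and others with the CIC list. Dusp1, another MAP kinase phosphatase, was higher in CDS by 3.35 ± 0.43. Egr1, an immediate-early transcription factor, was higher in ES: it ranged from 11.14 to 12.85 in ES and from 4.66 to 10.50 in CDS tumors. Myc was higher in ES by a smaller step, 11.46 to 12.07 against 10.01 to 11.20 (-1.05 ± 0.27), which fell below the fold of 1 log2 unit without CDS 5 or ES 51 (lowest size -0.90).

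Of the cyclins, D-type members were higher in CDS and cyclin E1 was higher in ES. Ccnd2, cyclin D2, ranged from 14.64 to 16.74 in CDS tumors and from 8.35 to 10.25 in ES tumors, a 76.6-fold difference. All 6 of its probe sets were called higher in CDS, by 6.26 to 11.38 on the log2 scale. Ccnd1 ranged from 14.46 to 16.67 and from 12.72 to 13.84, a 4.4-fold difference. Ccnd3 was higher by 2.61 ± 0.49. None of these 3 overlapped between the types, and with arrays at the same median Ccnd1 and Ccnd3 were not called. Ccne1, which starts DNA replication with CDK2, ranged from 8.94 to 10.29 in ES and from 3.58 to 8.82 in CDS (-3.59 ± 0.87; adjusted p = 0.00758, limma). CDS 2 and CDS 4, at 8.82 and 8.50, came close to the lowest ES tumor. Cdkn1c, an imprinted inhibitor of G1 kinases, was higher in CDS, from 13.72 to 15.53 against 2.91 to 8.53. Mycn, the member of the CIC list that was not called, had medians of 12.32 in CDS and 12.29 in ES on its brightest probe set. Its other 2 probe sets were called higher in ES (-7.43 ± 0.77 and -4.80 ± 0.90, adjusted p = 1.79e-06 and 0.00101, limma). The brightest was at -0.10, so that the call of Mycn, and not its sign, depended on the probe set.

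**Figure D2:**
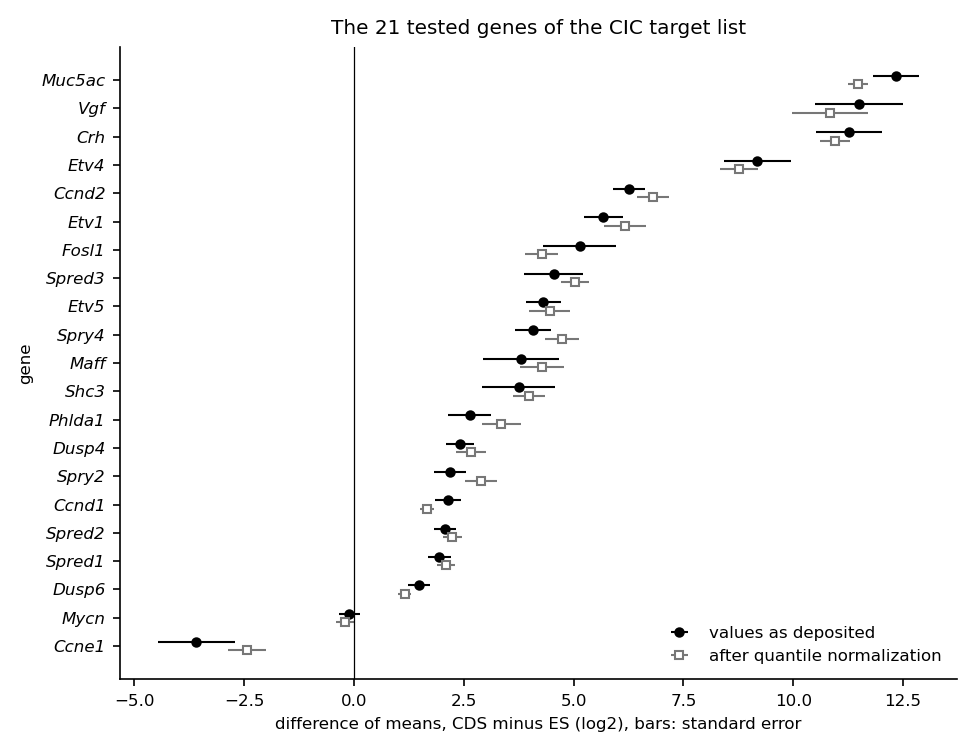
Difference in mean log2 signal, CDS minus ES (x axis), for the 21 tested genes of the CIC target list, with bars for the standard error; filled circles are the values as deposited and open squares those after quantile normalization. Muc5ac (12.34), Vgf (11.50), Crh (11.26) and Etv4 (9.18) lead, Mycn lies at -0.10 on its brightest probe set and Ccne1 at -3.59.

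Other genes with the largest differences towards CDS were at background in ES tumors. Spx, which encodes the secreted peptide spexin, had the largest difference of all, 13.39 ± 0.48 (adjusted p = 7.02e-12, limma). It ranged from 14.61 to 17.14 in CDS tumors (median 15.84) and from 2.30 to 2.63 in ES tumors (median 2.41). Its mean was 2.36 in eMC with the empty vector and 4.35 in eMC with CIC-DUX4, where array medians ranged from 2.33 to 7.05. Cytl1, a secreted protein of cartilage, ranged from 14.22 to 16.19 in CDS and from 2.17 to 3.23 in ES. Kpna7, an importin alpha known from oocytes, ranged from 12.83 to 14.45 and from 1.99 to 2.41, at least 366-fold apart. The 3 genes were below the dip in every ES tumor.

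Hmga2 and Dlk1 were high in CDS tumors and had means within the CDS range in the cultured cells without the fusion, while Ebf3 and Aldoc were lower there. Hmga2, a chromatin protein of embryonic tissue, ranged from 13.24 to 14.40 in CDS and had a mean of 13.48 in eMC with the empty vector. In ES tumors it was at 7.58 in ES 41, above the dip, and at 4.02 or less in the other 5. Dlk1, a Notch-like surface protein of embryonic mesenchyme, ranged from 11.89 to 13.84 in CDS and from 2.17 to 2.59 in ES, and had a mean of 12.86 in eMC with the empty vector. Ebf3, a transcription factor of the early B cell factor family, was at least 293-fold higher in CDS and had a mean of 5.98 in those cultures. Aldoc, a glycolytic aldolase, ranged from 13.52 to 15.35 in CDS and from 2.45 to 5.86 in ES, with ES 51 highest, and had a mean of 3.14 in eMC with the empty vector.

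In all, 35 genes lay above the dip in every CDS tumor and in no ES tumor (0.284%), and 39 the other way (0.316%). Beyond the genes above, the former held Pde10a, a cyclic nucleotide phosphodiesterase, at least 187-fold higher, and Cyp26b1, which degrades retinoic acid, at least 235-fold higher. Fgfbp3, a carrier of fibroblast growth factors, ranged from 12.14 to 13.24 in CDS and from 2.58 to 3.50 in ES. Per2, a circadian clock repressor, was at least 135-fold higher, and Camk4, a calcium-dependent kinase, at least 114-fold higher.

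**Figure D3:**
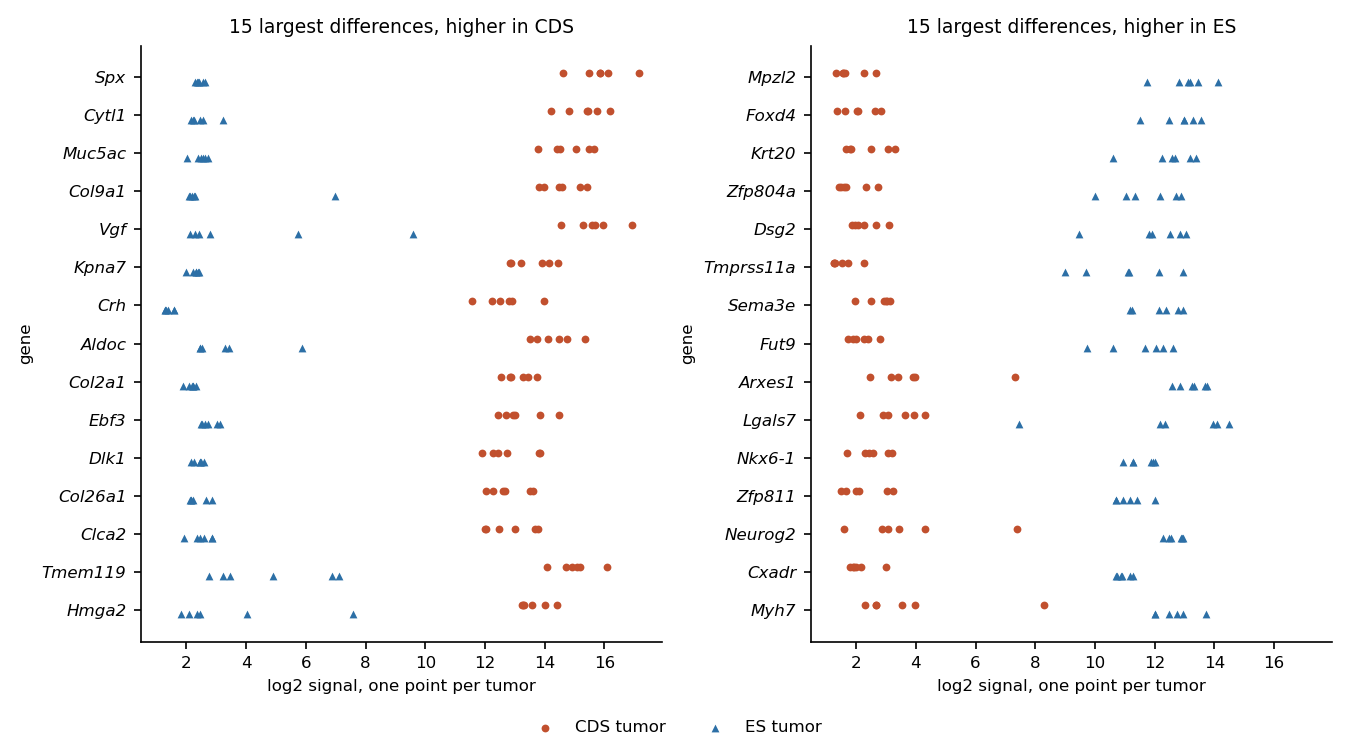
Log2 signal (x axis) of each tumor for the 15 genes with the largest difference towards CDS (left) and towards ES (right), among called genes whose types do not overlap; red circles are CDS tumors and blue triangles ES tumors. Most dimmer values lie below 4, with single tumors higher, such as ES 49 for Vgf (9.58), ES 41 for Hmga2 (7.58) and CDS 3 for Myh7 (8.28).

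Cartilage genes were higher in CDS tumors. Of 26 tested, 15 were higher in CDS (8 bright), 0 were higher in ES, and the median difference was 2.53. Col2a1, the collagen of cartilage, ranged from 12.54 to 13.73 in CDS tumors (median 13.08) and from 1.89 to 2.31 in ES tumors (median 2.20), at least 270-fold apart. Col9a1, a collagen that binds to its fibrils, ranged from 13.81 to 15.42 in CDS, and in ES only ES 51, at 6.98, lay above the dip. Comp and Prg4, of cartilage matrix and joint surface, were higher by 7.23 ± 1.06 and 8.76 ± 1.11. Acan, the main proteoglycan of cartilage, was bright in only 3 CDS tumors: 9.86 in CDS 1, 8.54 in CDS 2 and 9.34 in CDS 4, against 3.34 to 5.37 in the others. Sox9, the regulator of cartilage genes, was not called (2.50 ± 1.17; adjusted p = 0.124, limma), and was called higher in CDS after quantile normalization. The 7 cartilage calls that are not bright, Acan among them, therefore rest on at most 3 CDS arrays above the dip. Without the 6 arrays that were high in skeletal muscle markers (below), 7 cartilage genes were higher in CDS. Over all genes this was 675, against 1382 with all tumors.

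Matrix and adhesion genes were higher in CDS as well. Of 35 genes of fibrillar collagen and interstitial matrix, 18 were higher in CDS, all bright, 1 was higher in ES, and the median was 1.73. At the same median 5 were higher in CDS and 1 in ES, with a median of 0.71. Col1a1, the main collagen of connective tissue, ranged from 12.12 to 12.64 in CDS and from 7.06 to 11.07 in ES. Vcan, versican, ranged from 13.97 to 15.68 and from 7.87 to 10.98. Fbn2, fibrillin 2 of embryonic microfibrils, was the gene higher in ES, 11.25 to 12.37 against 4.06 to 9.73. Of 26 genes of basement membrane and integrins, 13 were higher in CDS (11 bright) and 0 in ES, and 7 were higher in CDS at the same median (median 0.45). Itga8, an integrin subunit for matrix ligands, ranged from 12.26 to 13.60 in CDS and from 2.11 to 2.93 in ES, at least 199-fold apart. Itgb3, the beta 3 integrin subunit, and Col4a5, a basement membrane collagen, were below the dip in every ES tumor and at least 75.3-fold and 112-fold higher in CDS.

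Ligands and targets of the BMP and TGF-beta pathway were higher in CDS. Of 33 genes, 17 were higher in CDS (15 bright) and 0 in ES, with a median of 2.09; after quantile normalization 21 were higher in CDS and 1 in ES, and at the same median 11 and 0. Bmp4, a bone morphogenetic protein, ranged from 11.47 to 12.36 in CDS tumors and from 1.97 to 3.29 in ES tumors, at least 118-fold apart. Bmp5, of the same family, ranged from 9.54 to 11.59 and from 1.82 to 2.81. Bmpr1b, a BMP receptor, was above the dip in 5 CDS tumors and no ES tumor. Tgfb3, a TGF-beta ligand, ranged from 11.87 to 12.68 in CDS and from 2.43 to 9.22 in ES. Id4, a target of BMP signalling, was higher by 6.92 ± 1.11, with CDS 5 at 5.78 and 1 ES tumor at 6.10. Id1 and Id3, named after their values were seen, were above the dip in all 12 tumors and higher by 4.72 and 3.95.

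Genes of the IGF axis and imprinted growth genes were mostly higher in CDS: 12 of 22 (11 bright), against 2 higher in ES, with a median of 2.08; at the same median 8 were higher in CDS and 3 in ES. Igf2, the fetal growth factor, ranged from 11.57 to 13.36 in CDS. In ES tumors it was between 9.18 and 9.54 in ES 46, 47 and 48, at 6.53 in ES 49, and at 2.94 and 1.99 in ES 41 and ES 51. Igf1r, its receptor, ranged from 12.06 to 14.17 in CDS and from 5.47 to 9.69 in ES, a 49.5-fold difference. Peg3, an imprinted zinc finger protein, was higher by 8.56 ± 0.82. Igf1 was not called (-2.34 ± 0.85; adjusted p = 0.0566, limma) and was called higher in ES on both other scalings. As deposited, 2 of its 4 probe sets were called higher in ES (-2.76 and -2.79; adjusted p = 0.0434 and 0.0272, limma). Pappa, a protease that frees IGF from its binding proteins, was higher in ES (-3.52 ± 1.12), with overlapping ranges; its adjusted p (limma) rose to 0.09 without ES 51.

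Wnt, Notch, guidance and receptor genes had called members in both directions. As deposited, 10.5% of Wnt, 7.5% of guidance, 10.3% of Notch and Hedgehog and 10.2% of receptor genes were higher in ES. These shares lie near the 9.58% over all genes. Those higher in CDS were 31.6%, 37.5%, 31.0% and 18.4%, against 11.2% over all genes. Of 38 Wnt pathway genes, 12 were higher in CDS (7 bright) and 4 in ES, and the median of 0.73 was -0.29 with arrays at the same median and -0.12 after quantile normalization. The counts were 8 in CDS and 6 in ES at the same median and 11 and 9 after quantile normalization. The inhibitors Dkk3 and Sfrp1 and the receptor Fzd5 were higher in CDS, by 7.03, 5.22 and 5.41. The ligands Wnt16, Wnt11 and Wnt7b were higher in ES. Wnt11 ranged from 8.09 to 11.71 in ES and from 2.54 to 6.11 in CDS, and Wnt16 was below the dip in every CDS tumor. Of 40 guidance genes, 15 were higher in CDS (8 bright) and 3 in ES. These were 4 and 7 at the same median, where the shares over all genes were 4.15% and 19%. After quantile normalization they were 18 and 6. Without the 6 arrays high in muscle markers, 4 were higher in CDS, and 675 over all genes, against 1382 with all tumors. Unc5c, a netrin receptor, ranged from 10.79 to 12.53 in CDS, and in ES only 1 tumor, at 7.63, lay above the dip. Sema3e, a repellent ligand, and Epha7, an ephrin receptor, were below the dip in all CDS tumors and at least 79-fold and 31.4-fold higher in ES. Epha4, a related receptor, ranged from 12.08 to 12.53 in ES and from 5.15 to 9.96 in CDS.

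Of 29 Notch and Hedgehog genes, 9 were higher in CDS (5 bright) and 3 in ES. These were 5 and 6 at the same median (4.15% and 19% over all genes) and 12 and 5 after quantile normalization. Notch4, a receptor known from vessels, ranged from 11.52 to 12.34 in CDS and from 2.87 to 7.28 in ES. Hey1, a Notch target, was higher in CDS by 6.51 ± 0.89, while the related Hes5 was below the dip in every CDS tumor and ranged from 6.83 to 9.84 in ES. Among growth factors and receptor tyrosine kinases, 9 of 49 were higher in CDS (5 bright) and 5 in ES; at the same median these were 4 and 5, and the median of 0.58 was -0.44. Ptn, pleiotrophin, ranged from 13.79 to 15.79 in CDS and from 7.17 to 11.07 in ES. Ntrk2, the receptor of BDNF, ranged from 9.81 to 11.73 in ES and was above the dip in 2 CDS tumors, and Bdnf itself ranged from 9.85 to 12.09 in ES and from 4.16 to 9.36 in CDS. Pdgfra, a receptor of mesenchymal progenitors, was higher in ES (-4.95 ± 1.00). Ngfr, the low-affinity neurotrophin receptor, went the other way, from 11.25 to 11.95 in CDS and from 2.26 to 2.72 in ES.

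The genes with the largest differences towards ES included epithelial and neural genes. Mpzl2, an adhesion protein of epithelia, ranged from 11.74 to 14.13 in ES tumors (median 13.15) and from 1.32 to 2.66 in CDS tumors (median 1.59). It was at least 154-fold higher in ES, with a fitted difference of -11.24 ± 0.71 (adjusted p = 1.27e-08, limma). Krt20, an intestinal keratin, ranged from 10.62 to 13.38 in ES and from 1.66 to 3.31 in CDS, at least 99.4-fold apart. Dsg2, a desmosomal cadherin, ranged from 9.45 to 13.04 and from 1.86 to 3.10, and Cxadr, an epithelial junction protein, from 10.71 to 11.27 and from 1.81 to 3.00. None of the 4 lay above the dip in any CDS tumor. Lgals7, galectin 7 of stratified epithelium, was between 12.19 and 14.50 in 5 ES tumors and at 7.45 in ES 46.

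Developmental transcription factors were among the same genes. Foxd4, a forkhead factor, ranged from 11.49 to 13.56 in ES and from 1.36 to 2.85 in CDS, at least 127-fold apart. Nkx6-1, a homeodomain factor of the pancreas and spinal cord, ranged from 10.93 to 12.02 and from 1.71 to 3.19. Neurog2, a proneural factor, ranged from 12.29 to 12.94 in ES tumors, and in CDS tumors CDS 4 alone, at 7.39, lay above the dip. Apela, a secreted ligand of the apelin receptor, and Sfmbt2, a Polycomb protein, were below the dip in every CDS tumor and at least 34.2-fold and 28.1-fold higher in ES. Vsnl1, a neuronal calcium sensor, and Rprm, a p53-induced cell cycle inhibitor, were at least 38.1-fold and 37.1-fold higher. Myh7, the slow and cardiac myosin heavy chain, ranged from 12.01 to 13.72 in ES tumors, and in CDS tumors CDS 3 alone, at 8.28, lay above the dip.

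The counts of called neural genes depended on the scaling, while their median was negative on each. Of 20, 4 were higher in CDS (0 bright) and 5 in ES (3 bright) as deposited, with a median of -0.53. After quantile normalization 2 were higher in CDS and 10 in ES (median -1.35), and at the same median 1 and 10 (median -1.54). Leaving out any single ES tumor left 1 or 2 higher in CDS. Over all genes, those fits had 1013 to 1231 higher in CDS, against 1382 with all tumors. Of 17 neuropeptide and neuroendocrine genes, 8 were higher in CDS (4 bright) and 3 in ES, and 4 in each direction at the same median; without ES 41, 47, 49 or 51, 4 or 5 were higher in CDS. Uchl1, a neuronal ubiquitin hydrolase, was above the dip in 5 ES tumors and no CDS tumor. Cpe, which trims peptide hormones, ranged from 12.05 to 13.31 in ES and from 6.12 to 10.81 in CDS. Ncam1, a neural adhesion protein, was higher in CDS, from 10.77 to 12.41 against 2.72 to 9.69.

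Mesenchymal and patterning factors had called members in both directions. As deposited, 14.6% and 7.89% of them were higher in ES, against 9.58% over all genes. Those higher in CDS were 29.2% and 28.9%, against 11.2% over all genes. Of 48 mesenchymal and lineage factors, 14 were higher in CDS (9 bright) and 7 in ES; their median of 0.58 was -0.44 with arrays at the same median, where 7 were higher in CDS and 12 in ES. After quantile normalization these were 17 and 11. Twist1, a regulator of mesenchyme, and Eya1, a cofactor of homeodomain factors, were above the dip in 5 CDS tumors and no ES tumor. Klf4, a factor of epithelia and stem cells, ranged from 11.22 to 12.97 in ES and from 4.13 to 9.15 in CDS. Tbx18, a T-box factor of embryonic mesenchyme, ranged from 9.36 to 12.40 and from 3.96 to 7.75. Of 38 Hox and related patterning genes, 11 were higher in CDS (6 bright) and 3 in ES (2 bright); their median of 0.50 was -0.51 at the same median, where 6 were higher in CDS and 4 in ES. Without CDS 6, ES 49 or ES 51, 7 were higher in CDS. Over all genes these were 1274, 1050 and 1013, against 1382 with all tumors. Hoxc13 was above the dip in 5 CDS tumors and no ES tumor. Dlx5, which patterns bone and limb, ranged from 7.57 to 10.95 in ES and from 2.26 to 5.37 in CDS.

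Genes known to be raised and to be lowered by EWS-FLI1 made up separate lists. Of 37 genes known as Ewing markers or activated by EWS-FLI1, 6 were higher in CDS (5 bright) and 6 in ES, with a median of 0.21 that was -0.81 at the same median. There 2 were higher in CDS and 13 in ES, and after quantile normalization 9 and 11. Without CDS 6, ES 47 or ES 51, 3 were higher in ES. Over all genes these were 948, 836 and 805, against 1182 with all tumors. Ptpn13, a phosphatase among the activated genes, ranged from 8.77 to 10.30 in ES and from 2.92 to 7.37 in CDS. Bcl11b, a zinc finger repressor, was higher in ES (-4.44 ± 1.38) with ES 51 at 2.65, and was not called without any one of CDS 1, 5 or 6 or any one ES tumor but ES 51 (highest adjusted p = 0.0752, limma, without ES 49). Fli1 was higher in CDS, from 12.48 to 13.98 against 8.21 to 10.33. The other ETS genes that were called, 7 of 18 in all and all bright, were also higher in CDS (8 and 2 in ES after quantile normalization, 6 and 2 at the same median); Erg was not called (1.36 ± 0.92). Of 16 genes known to be lowered by EWS-FLI1, 10 were higher in CDS, all bright, and 0 in ES, with a median of 1.85; at the same median 3 were higher in CDS and 0 in ES (median 0.83). Igfbp3, an IGF binding protein, ranged from 13.95 to 16.01 in CDS and from 11.72 to 13.85 in ES, and was not called at the same median. Ccn2, a matrix-associated growth regulator, was 6.2-fold higher in CDS. Ewsr1 was not called (0.20 ± 0.26). Cic was not called as deposited (1.63 ± 0.96; adjusted p = 0.219, limma) and was called higher in CDS after quantile normalization. Cd99l2, a relative of the Ewing marker CD99, was not called as deposited (-0.26 ± 0.88) and was called higher in CDS after quantile normalization (1.17).

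Cell division and amino acid genes lay towards ES. Of 33 genes of cell division and DNA replication, 7 were higher in ES, all bright, and 0 in CDS, with a median of -0.90; at the same median 12 were higher in ES. Without ES 41, 4 were higher in ES, and 852 over all genes, against 1182 with all tumors. Kif20a, a kinesin of cytokinesis, ranged from 9.43 to 11.25 in ES and from 4.99 to 9.20 in CDS. Aurka, a mitotic kinase, was higher in ES (-2.70 ± 0.69), with overlap. The replication genes Top2a, Pcna and Rrm2 were not called, at -0.23 ± 0.27, -0.10 ± 0.20 and 0.09 ± 0.28. Of 25 genes of the ATF4 and amino acid stress list, 6 were higher in ES, all bright, and 1 in CDS, against 10 and 1 at the same median. Asns, which makes asparagine, ranged from 12.23 to 13.43 in ES and from 6.60 to 10.46 in CDS, and Phgdh, which starts serine synthesis, from 9.72 to 11.34 and from 5.44 to 9.16. Atf4 was not called (0.36 ± 0.24). Vldlr, a lipoprotein receptor, was the member higher in CDS, by 7.52 ± 1.01.

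Hypoxia and glycolysis genes were 10 higher in CDS (9 bright) and 3 in ES, of 33. Their median of 0.63 was -0.38 at the same median, where 5 were higher in CDS and 6 in ES (4.15% and 19% over all genes). After quantile normalization these were 11 and 5. Without CDS 2, 5 and 6, 6 were higher in CDS, and 1082 over all genes, against 1382 with all tumors. Car9, a carbonic anhydrase induced by low oxygen, ranged from 10.95 to 12.51 in CDS tumors and from 2.30 to 2.96 in ES tumors, at least 104-fold apart. Egln3, an oxygen-sensing hydroxylase, ranged from 10.65 to 12.39 and from 3.89 to 10.28. Pfkp, a phosphofructokinase, went the other way, from 13.15 to 14.02 in ES and from 5.82 to 9.77 in CDS. Gapdh was not called (0.53 ± 0.22).

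**Figure D4:**
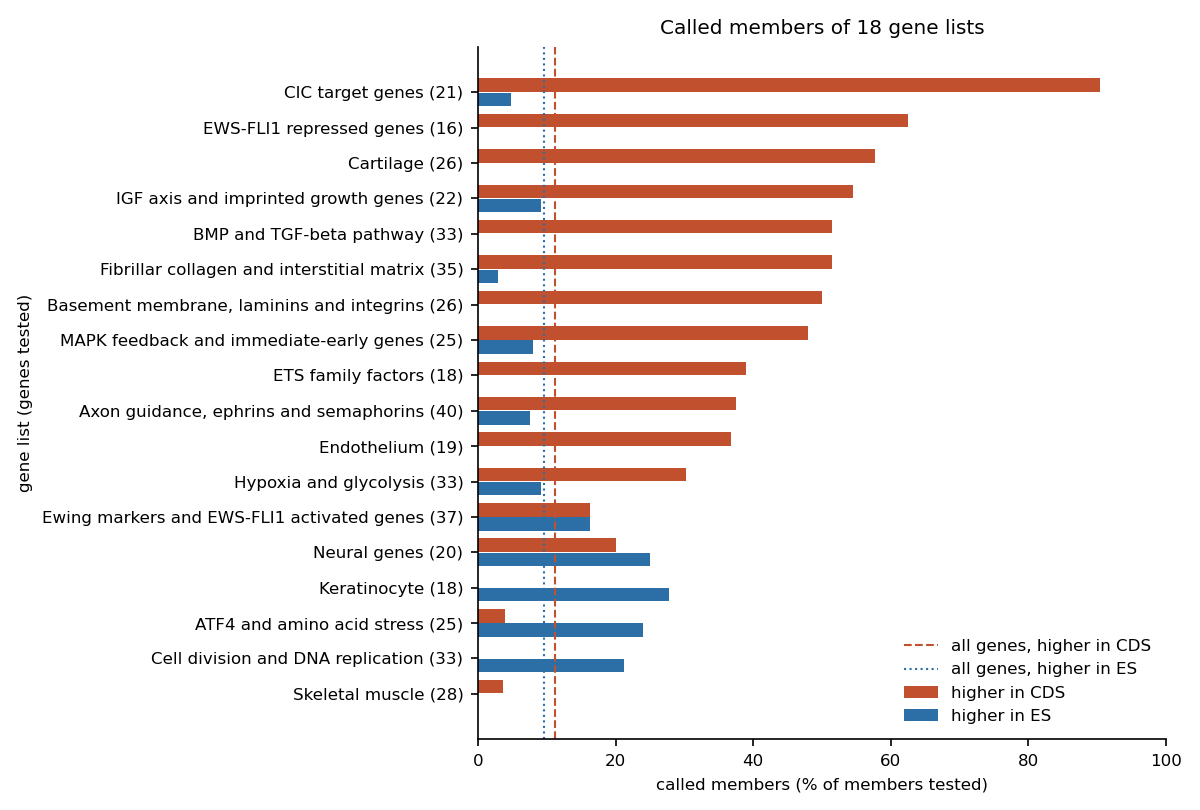
Share of the tested members of 18 gene lists called, with the values as deposited, higher in CDS (red bars) or in ES (blue bars), in percent of members tested (x axis), with dashed and dotted lines at the shares over all genes, 11.2% and 9.58%. CIC target genes have 19 of 21 towards CDS, and the keratinocyte, cell division and amino acid lists have 5, 7 and 6 members towards ES.

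Bulk tumors also hold host cells, and fewer cells of a type and less RNA per cell cannot be told apart in them. Endothelial markers were higher in CDS for 7 of 19 genes (6 bright) and in ES for 0; 3 were higher in CDS at the same median and 12 after quantile normalization. Their summed linear signal was 24599 to 29668 in CDS tumors and 2046 to 9944 in ES tumors. Cdh5, the cadherin of vessels, ranged from 11.61 to 12.66 in CDS and from 7.09 to 10.34 in ES. With probe sets tested one by one, Pecam1, which also defines endothelium, was not called (2.84, adjusted p = 0.0633, limma). Emcn (1.44), Kdr (0.79) and Cldn5 (0.04) were not called there either. Pericyte markers summed to 19931 to 66599 in CDS and 4019 to 16586 in ES, and 2 of 8 were higher in CDS, Pdgfrb and Rgs5. The pericyte median of 0.81 was -0.21 at the same median, where 0 of its genes were called (limma), and Pdgfrb was not called without ES 51 (adjusted p = 0.0997, limma) or any one of CDS 1, 2, 3, 4 and 6 and ES 41, 48 and 49. Both sums were higher in every CDS tumor, as were Notch4, Fli1, Ets1 and Col1a1, and their part in those results was not tested.

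Keratinocyte markers summed higher in every ES tumor than in any CDS tumor, and Mpzl2, Krt20, Dsg2 and Cxadr were also higher in every ES tumor. Of these markers, Krt5 (0.18) and Krt14 (-1.18 and -1.07 by probe set), which define keratinocytes, were not called. Lor was not called either, at 1.18. Of 18 keratinocyte genes, 5 were higher in ES (8 at the same median) and 0 in CDS. The sums were 132 to 854 in CDS tumors and 1215 to 29542 in ES tumors, with ES 48 highest and ES 47 lowest of the ES tumors. The 5 calls became 2 or 3 without CDS 1, 2, 5 or 6 or without ES 41, 46 or 51. Over all genes, 805 to 1387 were higher in ES in those fits, against 1182 with all tumors. Mpzl2 was at 12.82 in ES 47 and 13.16 in ES 48, and Dsg2 was lowest in ES 47. The part of the keratinocyte markers in these results was not tested. Macrophage sums overlapped, 23920 to 111860 in CDS and 36419 to 108560 in ES, and of 21 markers only Arg1, an arginase, was called as deposited, higher in ES (-5.33 ± 1.49), against 6 higher in ES at the same median and 3 after quantile normalization. Adipocyte markers had 0 calls of 12 (limma). Skeletal muscle sums ranged from 5150 to 597100 in CDS tumors and from 1768 to 439541 in ES tumors, and were high in CDS 3, 4 and 5 and in ES 46, 48 and 49. Of 28 muscle markers, 1 was called, Tnnc1, higher in CDS by 4.39 ± 1.45, which was not called without any one of CDS 1, 2, 4, 5 and 6 or ES 41, 49 and 51 (highest adjusted p = 0.0902, limma, without ES 41). Without those 6 arrays, 675 genes were higher in CDS and 540 in ES; of the CIC list 18 were higher in CDS. Xist, the RNA of the inactive X chromosome, was higher in CDS by 1.49 ± 0.51, with overlap. It was not called after quantile normalization or without any one of CDS 1, 2, 5 and 6 and ES 46 to 49 (highest adjusted p = 0.104, limma, without CDS 5).

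**Figure D5:**
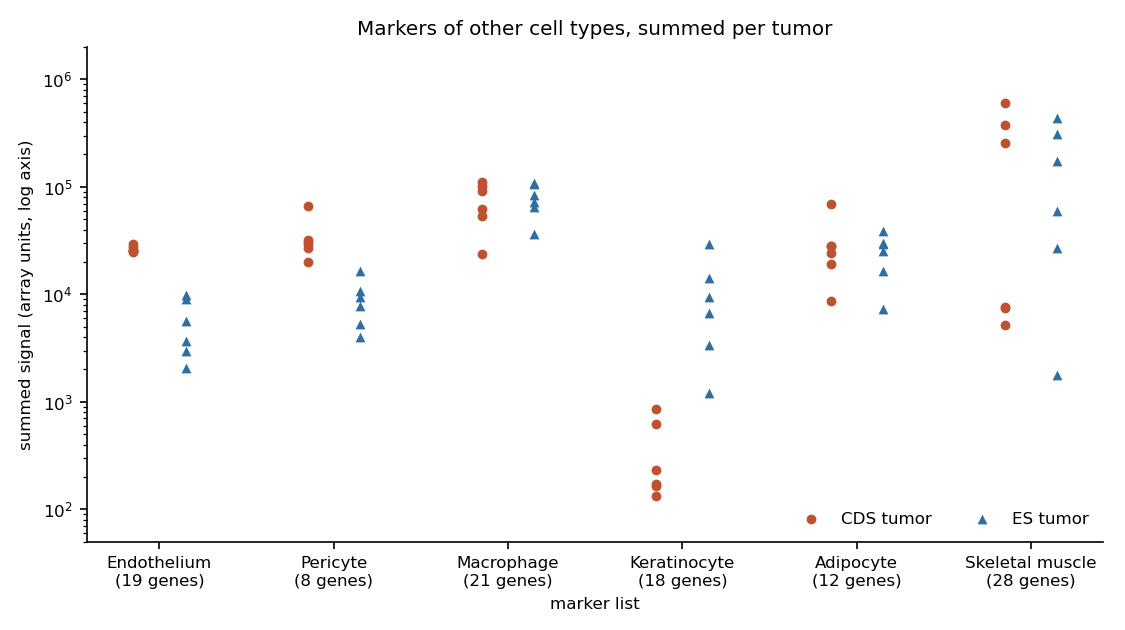
Summed linear signal (y axis, log scale, array units) of the markers of 6 cell types in each tumor, CDS tumors as red circles and ES tumors as blue triangles. Endothelial and pericyte sums are higher in every CDS tumor, keratinocyte sums are higher in every ES tumor, and the macrophage, adipocyte and skeletal muscle sums overlap.

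As deposited, arrays of one type were not alike for every gene. Among CDS tumors, Acan, the ephrin receptor Epha3 and the bone protein Ibsp were higher in CDS 1, 2 and 4 than in the others: Epha3 was at 10.28, 8.24 and 8.99 there and at 4.92 or less in CDS 3, 5 and 6. Alb, serum albumin, was at 9.25, 9.12 and 8.46 in CDS 1, 3 and 4 and at 3.46 or less in the others. Among ES tumors, Cdh1, the epithelial cadherin, was at 12.12 in ES 41, 12.38 in ES 51, 9.61 in ES 48 and 7.49 in ES 46, and at 1.66 and 2.16 in ES 47 and ES 49. Dbx1, a homeodomain factor of the neural tube, was between 10.89 and 12.16 in ES 41, 48, 49 and 51 and below 3 in ES 46 and ES 47. Lhx8, a LIM homeodomain factor, was at 9.34, 11.76 and 11.22 in ES 46, 47 and 48 and at 3.06 or less in the other 3. Both Cdh1 and Lhx8 lost their calls when single tumors were left out (highest adjusted p = 0.0758 without ES 41 and 0.0858 without ES 47, limma). These genes were picked for their spread among the called genes, so the spread is a description.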

How the data were processed

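Total RNA of each sample was hybridised to 1 Affymetrix mouse array of perfect-match probes, and the deposited values are log2 signals. The submitters' processing notes name MAS5; which version and settings were used was not stated. Each deposited array has nearly the same 2% trimmed mean on the linear scale.

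Of 45141 probe sets, 104 controls were dropped; 28898 had 1 symbol, 551 several and 15588 none. Signals entered as log2(signal + 1.42305), which understates folds of dim genes. Probe sets above their array's median in at least 4 of 20 arrays were kept (26897). Each gene was read from its brightest, that of the highest mean over all 20 arrays, for 12343 genes. CDS and ES tumors were compared with limma 3.58.1 (R 4.3.3; trended eBayes, Benjamini-Hochberg over all genes), checked on simulated data. A bound, "at least N-fold", sets the brighter mean against the dip of arrays where a gene lay below it. Arrays have no read depth, and their number limits the precision.

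Members and lists were chosen with earlier results of these data known. Named genes are the 15 largest non-overlapping differences in each direction called the same way after quantile normalization (no predicted or clone-derived symbols), a list of genes of interest, up to 6 called and 3 bright uncalled members of each list, 6 genes a type above the dip in only that type, and the 8 called genes of largest spread within a type; others are marked. Alternatives covered scaling, offset, filter, probe set choice, fit, thresholds and left-out arrays.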

Additional observations from a re-analysis of the deposited data

Results flagged for a closer look

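For 32 gene values 1 tumor stood far from the other 5 of its type (by the limit of Dixon's test on the gap to the nearest other tumor). Chance alone marks about 1 in 20 such groups. Some of the named genes were picked for their spread, so the 32 cannot be set against that share. All values are log2 signals, with the range of the other 5 tumors beside them.

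CDS 5, the array with the lowest share of probe sets above the dip (11.7%), held 8 of them. It was low for Dkk3 at 6.70 (10.40 to 10.66), Id4 at 5.78 (10.31 to 11.04), Sfrp1 at 5.59 (8.83 to 10.12), Eya1 at 6.23 (9.93 to 11.49), Twist1 at 5.84 (9.32 to 10.96) and Asns at 6.60 (9.02 to 10.46), all 6 below its dip of 8.09. It was high for Spred1 at 13.87 (12.59 to 12.96). CDS 6 was high for Col4a5 at 13.37 (11.31 to 11.75), Fgfbp3 at 13.24 (12.14 to 12.53), Ncam1 at 12.41 (10.77 to 11.38) and Peg3 at 13.54 (12.48 to 12.84). CDS 3 was high for Myh7 at 8.28 (2.31 to 3.97), and CDS 4 for Arg1 at 8.28 (2.38 to 4.00).

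Among ES tumors, ES 46 was high for Prg4 at 10.42 (1.98 to 4.48), Comp at 7.76 (2.07 to 2.54) and Vldlr at 7.91 (1.86 to 3.37), which lay below the dip in the other 5. It was also high for Ccn2 at 13.68 (11.38 to 12.19), which lay above the dip in all 6, and low for Lgals7 at 7.45 (12.19 to 14.50) and Top2a at 12.35 (12.84 to 13.03). ES 51 was high for Col9a1 at 6.98 (2.10 to 2.30), Unc5c at 7.63 (2.41 to 3.14) and Aldoc at 5.86 (2.45 to 3.44), and low for Bcl11b at 2.65 (10.21 to 11.96). ES 48 was low for Spred3 at 3.70 (7.56 to 8.21) and Cic at 3.54 (7.44 to 8.74). ES 47 was high for Erg at 6.62 (2.28 to 3.32) and low for Dsg2 at 9.45 (11.79 to 13.04). ES 41 was low for Tbx18 at 9.36 (11.54 to 12.40).

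The other 4 values lay below the dip in every tumor of their type, so that they are differences within the dim mode: Cxadr at 3.00 in CDS 5 (1.81 to 2.18), Fgfbp3 at 3.50 in ES 48 (2.58 to 2.87), Twist1 at 3.29 in ES 46 (2.19 to 2.56) and Cytl1 at 3.23 in ES 41 (2.17 to 2.55).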

How the results depend on the processing

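The counts of called genes depended on scaling and threshold. As deposited they were 1382 higher in CDS and 1182 in ES; they were 2090 and 1993 after quantile normalization, 512 and 2349 with arrays at the same median, 741 and 525 at an adjusted p under 0.01 (limma), and 675 and 540 without the 6 arrays high in muscle markers, a setting added after the data were seen that also leaves fewer samples. The cause of the other shifts was not tested. Leaving out each tumor in turn gave 1013 to 1520 genes higher in CDS and 805 to 1413 in ES. The Actb 3′ over 5′ difference was 0.45 to 0.65 over those fits. The difference in the bright share of an array, -2.61 percentage points, ranged from -7.77 to 1.37, and changed sign without CDS 5 (1.37).

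Changes of sign among named genes were those of genes not called as deposited. Of them, Cd99l2 was called higher in CDS after quantile normalization (adjusted p = 0.0372, limma). Its other probe sets were at 1.56 and 1.22 as deposited and were not called. With arrays at the same median, Atf4 was -0.65, Ewsr1 -0.81, Gapdh -0.49 and Rrm2 -0.93. From the mean of all probe sets, Cd99l2 was 0.84, Ewsr1 -0.24 and Rrm2 -0.87. After quantile normalization, Cd99l2 was 1.17, Ewsr1 -0.076 and Rrm2 -0.081. Without CDS 2, 5 and 6, Cd99l2 was 1.15, and without the 6 muscle arrays Ewsr1 was -0.10. With each tumor left out in turn, Cd99l2 ranged from -0.64 to 0.37, Ewsr1 from -0.050 to 0.36, Mycn from -0.22 to 0.0034, Pcna from -0.21 to 0.022 and Rrm2 from -0.063 to 0.24.

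No paired analysis was possible because the CDS and ES tumors share no replicate numbers. Signal near background limits the dim calls: 563 of the genes higher in CDS were above the dip in fewer than 4 CDS arrays.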
